A study of Mus musculus with 8 samples.

Results

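The genes described are 8 neutrophil genes taken by symbol, those of the primary granule proteins and of proteins made at the same early stage: Mpo, Elane, Prtn3, Ctsg, Ms4a3, Lyz2, Prss57 and Serpinb1a. All 8 were found among the 39107 annotated genes with a count and passed the filter on low counts, which left 21902 genes tested. They were followed in sorted LT-HSCs by RNA-seq, 1 mouse to a library, over 4 libraries of the asrij floxed genotype (replicates 1, 3, 4 and 5) and 4 of the asrij KO genotype (replicates 2, 3, 4 and 5). The gene asrij is named Ociad1 in the annotation. The KO mice lack it in the whole body, the floxed mice are homozygous for the floxed allele and served as controls, and the labels give 6 months of age for both. The labels name no treatment. The RNA-seq methods name LSK CD150+ CD48+ cells, while other methods of the study define LT-HSCs as CD48-.

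Primary (azurophil) granules are the first granules that a developing neutrophil fills, at the promyelocyte stage, and their contents kill ingested microbes. Their cargo is a peroxidase, a family of serine proteases and lysozyme. Transcription of most of these genes is switched on in committed granulocyte and monocyte progenitors and is shut off before the neutrophil matures, so long-term stem cells are not where they are usually found at a high level.

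Levels are given as CPM (a count scaled to a common library size by TMM), fold changes as log2 with KO minus floxed, and a gene passed at an adjusted p-value under 0.05. Per-library values always follow the replicate order above. The targeted gene Ociad1 had 41.56, 66.87, 36.74 and 31.35 CPM with the floxed genotype and 15.17, 19.71, 12.52 and 11.67 CPM with the KO, with no overlap. Gene counts per library summed to between 23412834 and 44874883. Floxed replicate 3, the deepest library, stood apart: it was the lowest of all libraries for 21.1% of the genes tested, and for 6 of the 8 members. It had a count for 34367 genes, against 28181 to 29707 in the other libraries. Libraries numbered 4 and 5 also differed from those numbered 1 to 3 in both genotypes. Results for the members and counts for the lists are therefore given with and without floxed replicate 3, and the members also within these numbers. Several markers of the labelled cell type were low: of 14 LT-HSC markers, Procr and Hoxb5 did not exceed 1 CPM in any library, and Slamf1, which encodes CD150, ranged from 0.8814 to 4.395 CPM. Others of the list were higher, with 46.82 to 60.16 CPM for Kit and 14.77 to 72.67 CPM for Pdzk1ip1. The summed CPM of the 14 LT-HSC markers was 152.2 to 216.2. That of 10 mature neutrophil markers was 1338 to 3402, and that of 18 specific and gelatinase granule genes 20290 to 60430. Beside these values the members are described as genes of the sorted RNA, without assigning them to stem cells.

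In KO libraries all 8 members had a lower mean than in floxed libraries, and none passed the test. The log2 fold changes ran from -0.83 for Lyz2 to -0.21 for Prss57, with a median of -0.58, against -0.01 over all genes tested, of which 50.4% were below 0. In edgeR's quasi-likelihood test 0 of the 8 had an adjusted p-value under 0.05, 2 (Ms4a3 and Serpinb1a) had an unadjusted p-value under 0.05, and DESeq2 and limma-voom also passed 0. Of all genes, 2.97% passed, 1.75% with a lower level in KO, and 12.1% were lower at an unadjusted p-value under 0.05. Without floxed replicate 3, 4 of the 8 passed (Mpo, Ctsg, Lyz2 and Serpinb1a), all lower in KO, beside 8.64% of all genes lower and 17.5% in either direction. None of the 8 reached the absolute log2 fold change of 1.5 that the study's threshold adds, which with the p-value 1.19% of genes met. That is 261 genes. The fit with replicate number as a block used only the 6 libraries numbered 3, 4 and 5 and gave 44, against 23 in the same 6 libraries without it. With that block 0.222% of all genes had an adjusted p-value under 0.05, and 0 of the 8 members. As these are bulk samples, fewer cells of a type and less RNA per cell cannot be told apart.

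**Figure D1:**
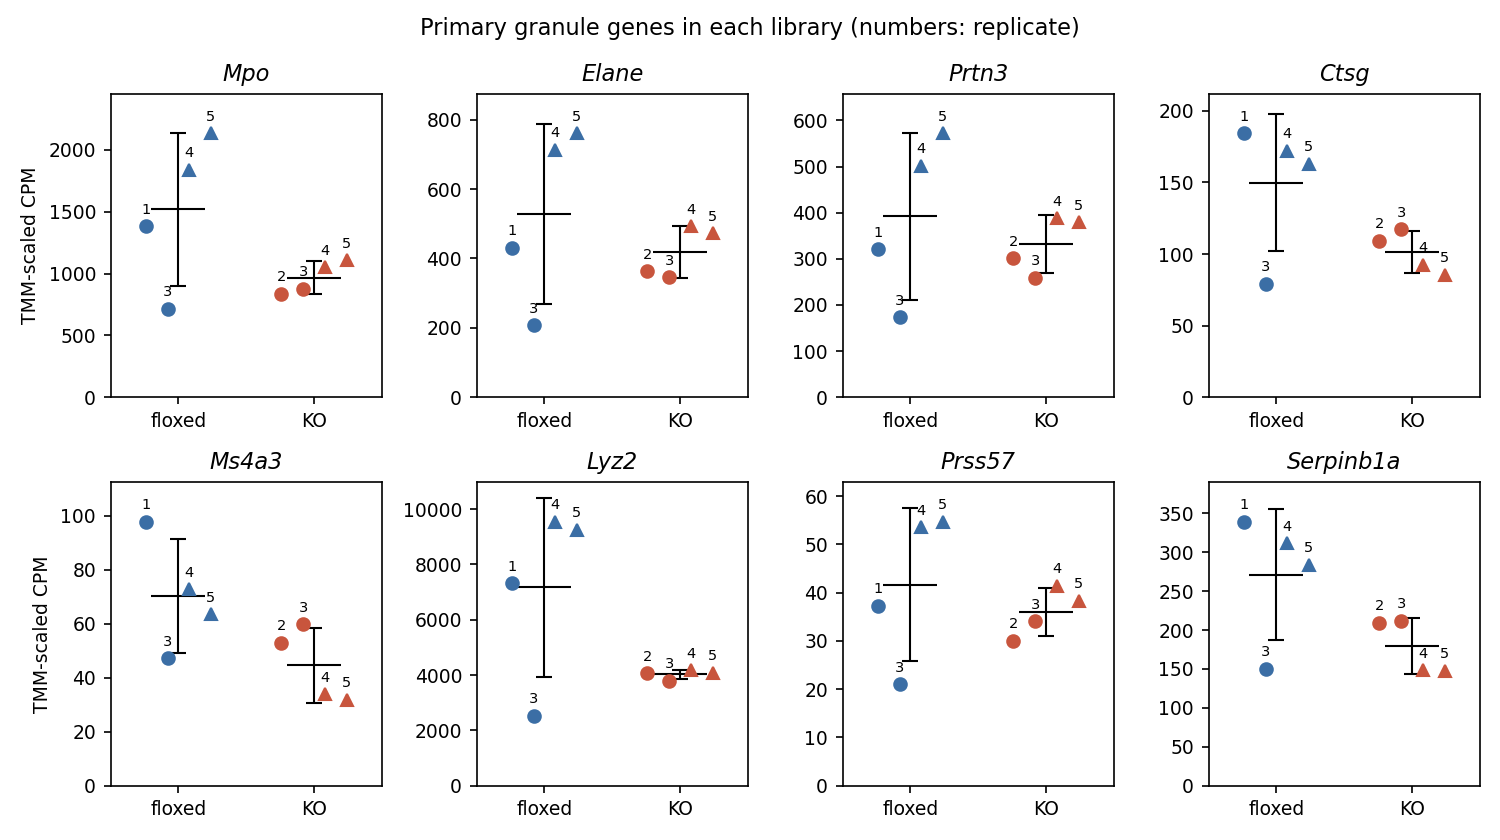
TMM-scaled CPM of each primary granule gene in the 4 floxed (blue) and 4 KO (red) libraries, with replicate numbers, circles for numbers 1 to 3 and triangles for 4 and 5. Horizontal bars are means and error bars SD (n = 4); floxed replicate 3 is the lowest library in 6 of the 8 panels, and the KO libraries of Lyz2 lie between 3789 and 4172 CPM.

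Mpo, on the plus strand of chromosome 11 (GRCm38, chr11:87793581-87804413, ENSMUSG00000009350.13), encodes myeloperoxidase, the enzyme that makes hypochlorous acid and the classical marker of these granules. Floxed libraries held 1384, 715.6, 1841 and 2136 CPM of it and KO libraries 836.5, 877.4, 1052 and 1106 CPM. The KO libraries were close together and lay below floxed replicates 1, 4 and 5 but above floxed replicate 3. The means were 1519 ± 619 CPM in floxed and 968 ± 131 CPM in KO (SD, n = 4), a log2 fold change of -0.65 with a standard error of 0.32 (adjusted p = 0.273, edgeR). Without floxed replicate 3 it was -0.88 (adjusted p = 0.015, edgeR).

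Lyz2, which encodes the lysozyme of granulocytes and macrophages and cleaves bacterial cell walls, was by far the most abundant member. It lies on the minus strand at chr10:117277331-117282321 (ENSMUSG00000069516.8). Counts on it made up 64.3% to 72.4% of all member counts in a library. Floxed libraries stood at 7320, 2533, 9546 and 9260 CPM, and KO libraries at 4057, 3789, 4172 and 4075 CPM. The KO libraries varied little, with an SD of 164 CPM about a mean of 4023, while floxed libraries spanned the whole range, with 7165 ± 3242 CPM (SD, n = 4). The log2 fold change was -0.83 with a standard error of 0.39 (adjusted p = 0.248, edgeR), and -1.10 without floxed replicate 3 (adjusted p = 0.00243), the largest change of any member in either fit. Lyz1, the paralogue 5476 bases away, holds 15.4% of the 50-base stretches of the Lyz2 transcript, so a minority of reads could belong to either. It did not follow Lyz2 among libraries: Lyz1 was at 63.44, 19.86, 8.036 and 9.351 CPM in floxed libraries and 21.19, 27.38, 4.044 and 5.109 CPM in KO, lower in replicates 4 and 5 of both genotypes.

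Elane, Prtn3, Ctsg and Prss57 encode neutrophil elastase, proteinase 3, cathepsin G and NSP4, serine proteases of the granule. Elane (ENSMUSG00000020125.7, plus strand, chr10:79886247-79888215) had 431, 207.4, 712.5 and 761.1 CPM across the floxed libraries and 362.8, 345.9, 492.2 and 472.6 CPM across the KO libraries. The KO values fell inside the floxed range. Its log2 fold change was -0.34 with a standard error of 0.37 (adjusted p = 0.647, edgeR), and -0.59 without floxed replicate 3 (adjusted p = 0.116). Prtn3 (ENSMUSG00000057729.12, plus strand, chr10:79874476-79883174), 3073 bases from Elane, had 320.9, 172.8, 502.2 and 572.6 CPM across the floxed libraries and 301.6, 258.7, 388.2 and 379.4 CPM across the KO libraries. The order of libraries was that of Elane. Its log2 fold change of -0.24, with a standard error of 0.34 (adjusted p = 0.736, edgeR), became -0.48 without floxed replicate 3 (adjusted p = 0.201).

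Prss57 (ENSMUSG00000020323.14, minus strand, chr10:79781474-79790961) was the least abundant member. Floxed libraries held 37.31, 21.03, 53.53 and 54.73 CPM and KO libraries 30.06, 34.07, 41.44 and 38.33 CPM. It had the smallest fold change of the 8, -0.21 with a standard error of 0.28 (adjusted p = 0.715, edgeR), and -0.42 without floxed replicate 3 (adjusted p = 0.146). Fstl3, on the other strand, overlaps it and shares 39.6% of the 50-base stretches of the Prss57 transcript, so their reads cannot be told apart there. Fstl3 itself had 7.773 to 23.15 CPM. Elane, Prtn3 and Prss57 lie on the same stretch of chromosome 10. Palm, between Prss57 and Ptbp1, had a log2 fold change of -0.23 (adjusted p = 0.772, edgeR). Ptbp1, the nearest tested gene on the other side of Prtn3, had 0.27 (adjusted p = 0.27, edgeR). Rnf126, on the other side of Prss57, had 0.50, and Gm19810, past Elane, had 0.88. Whether the place of Elane, Prtn3 and Prss57 plays a part was not tested.

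Ctsg (ENSMUSG00000040314.2) lies apart from them, on the minus strand at chr14:56099881-56102574, among mast cell and lymphocyte proteases. The floxed libraries gave 184.5, 79.32, 172.1 and 163.2 CPM, and the KO libraries 109.4, 117.4, 92.6 and 85.69 CPM. All KO libraries were below floxed replicates 1, 4 and 5, and floxed replicate 3 was the lowest of all. The means were 150 ± 47.8 and 101 ± 14.7 CPM (SD, n = 4), a log2 fold change of -0.56 with a standard error of 0.26 (adjusted p = 0.238, edgeR) that was -0.76 without floxed replicate 3 (adjusted p = 0.00741). Its neighbours Mcpt8, a basophil protease, and Gzmb, a granzyme of cytotoxic cells, had log2 fold changes of -0.82 (adjusted p = 0.236) and -1.41 (adjusted p = 0.0761) in the same edgeR fit.

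Serpinb1a encodes an intracellular inhibitor of elastase, proteinase 3 and cathepsin G that protects the cell from its own proteases. It lies on the minus strand at chr13:32842092-32851185 (ENSMUSG00000044734.16). Floxed libraries had 339.5, 150.2, 311.8 and 283.9 CPM and KO libraries 209.6, 212, 148.7 and 147.5 CPM. Only floxed replicate 3 reached down to the KO values. The log2 fold change was -0.60 with a standard error of 0.27 (adjusted p = 0.229, edgeR), and -0.79 without floxed replicate 3 (adjusted p = 0.017). Reads of its copies Serpinb1b and Serpinb1c were few, at no more than 0.5674 CPM in any library.

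Ms4a3 encodes a membrane protein of the 4-span family that marks granulocyte and monocyte progenitors. It lies on the minus strand at chr19:11629496-11640851 (ENSMUSG00000024681.11). Its level was 97.85, 47.2, 72.79 and 63.58 CPM in the floxed libraries and 53.04, 59.86, 33.85 and 31.88 CPM in those of KO mice. Floxed replicate 3 again lay within the KO range. The log2 fold change was -0.65 with a standard error of 0.27 (adjusted p = 0.202, edgeR), and -0.79 without floxed replicate 3 (adjusted p = 0.068). Ms4a2, its neighbour on the chromosome and a chain of the IgE receptor of basophils and mast cells, had a log2 fold change of -0.92 (adjusted p = 0.0971, edgeR).

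**Figure D2:**
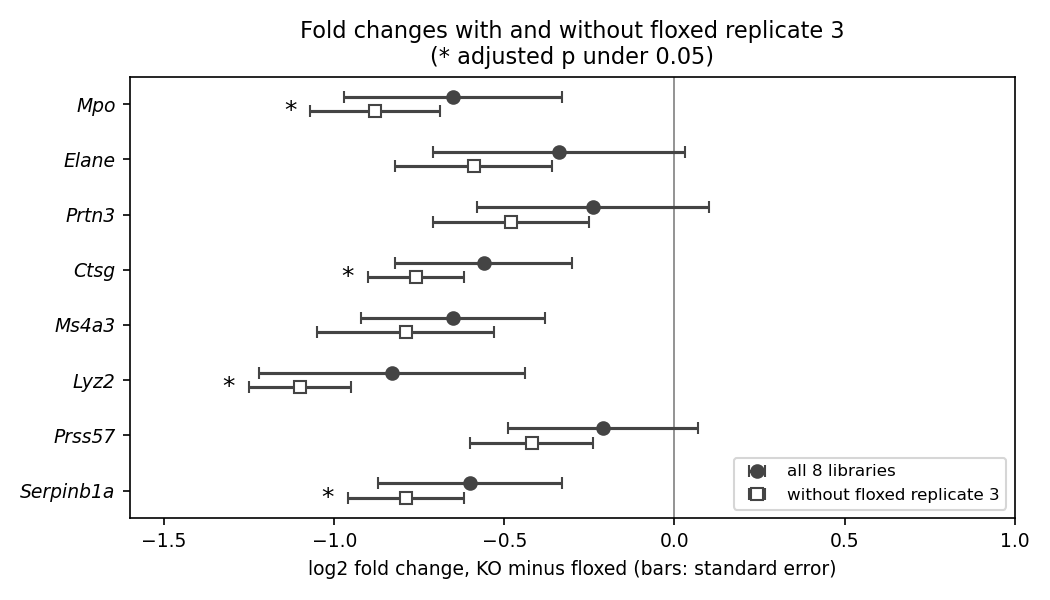
Log2 fold change (KO minus floxed, x axis) of each member from edgeR, with bars for the standard error, over all 8 libraries (filled circles) and without floxed replicate 3 (open squares), stars marking an adjusted p-value under 0.05. All 16 points lie below 0, and the stars stand at Mpo, Ctsg, Lyz2 and Serpinb1a without floxed replicate 3.

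Without floxed replicate 3, every KO library was below every remaining floxed library for 5 members (Mpo, Ctsg, Ms4a3, Lyz2 and Serpinb1a), as for 15.2% of all genes. With it, this held for none of the 8 and for 7.66% of all genes. Within replicates 4 and 5, KO means were below floxed means for all 8 members, by log2 differences of -0.44 (Prss57) to -1.19 (Lyz2). Within replicates 1 to 3 they were below for 5, by -0.22 to -0.36, and above for Elane, Prtn3 and Prss57, by 0.14 to 0.18. Against floxed replicate 1 alone, KO replicates 2 and 3 were lower for all 8, by -0.20 to -0.90. With numbers 4 and 5 against the others as a block, the count of members past the test stayed at 0 while 9.65% of all genes passed with a lower level in KO.

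The members together took 1.11%, 0.463%, 1.33% and 1.34% of the gene counts in the floxed libraries, and 0.595%, 0.593%, 0.561% and 0.531% in the KO libraries. Haemoglobin genes moved the other way, with 2.84% to 7.66% of gene counts in floxed and 12.2% to 24.3% in KO. With haemoglobin counts taken out of the total, the members' share was 1.14%, 0.501%, 1.4% and 1.41% in floxed and 0.691%, 0.676%, 0.708% and 0.701% in KO, and floxed replicate 3 stayed the lowest of the 8 libraries. With haemoglobin genes left out of the fit, 0 of the 8 members passed as well.

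Per kilobase of spliced transcript, floxed libraries had 5444 ± 2464 CPM for Lyz2, 552 ± 225 for Mpo, 537 ± 263 for Elane, 383 ± 176 for Prtn3, 150 ± 47.7 for Ctsg, 142 ± 43.7 for Serpinb1a, 69.7 ± 21.0 for Ms4a3 and 14.7 ± 5.59 for Prss57 (SD, n = 4). The gaps between Lyz2 and Mpo, Prtn3 and Ctsg, Serpinb1a and Ms4a3, and Ms4a3 and Prss57 were larger than the SDs of either gene, while Mpo, Elane and Prtn3 lay within each other's SD and so did Ctsg and Serpinb1a. These SDs are between libraries, which the members share, and do not test the order within a library. Per spliced kilobase, Mpo and Elane were above Prtn3 in every floxed library. Their count ratios to Prtn3 (1025 bases) were 3.67 to 4.31 for Mpo (2750 bases) and 1.2 to 1.42 for Elane (984 bases). In KO libraries the per-kilobase levels were 3057 ± 125 CPM for Lyz2, 352 ± 47.7 for Mpo and 425 ± 75.9 for Elane, so that Elane stood above Mpo. Counts in these files also cover introns, and per kilobase of genomic span Elane was above Mpo in floxed libraries too (268 ± 131 against 140 ± 57.1 CPM).

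The members followed a pair of patterns across libraries. In both genotypes Mpo, Elane, Prtn3 and Prss57 were higher in replicates 4 and 5 than in the others. In floxed libraries Elane in replicates 4 and 5 averaged 1.71 times replicate 1, and in KO libraries 1.36 times replicates 2 and 3. On the same scales Ctsg, Ms4a3 and Serpinb1a were lower in replicates 4 and 5 of both genotypes, Ms4a3 at 0.697 times and 0.582 times. In floxed libraries this holds against replicate 1 only: with replicate 3 averaged in, Ctsg had 131.9 CPM against 167.6 in replicates 4 and 5, and Serpinb1a 244.8 against 297.8, the other way. Lyz2 was higher in floxed (1.285 times) and nearly level in KO (1.051 times). Over the 8 libraries, log2 levels of Elane correlated with Prtn3 at r = 0.993 and with Prss57 at r = 0.989, and Ctsg with Serpinb1a at r = 0.986, while Prtn3 and Ms4a3 gave r = 0.113. These are descriptions over libraries that share their depth and scaling, and the median r over the 28 pairs was 0.847, or 0.778 without floxed replicate 3.

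Ratios show the patterns without the library scaling. Elane to Prtn3 held between 1.2 and 1.42 in all 8 libraries, and Ctsg to Serpinb1a between 0.522 and 0.623. Elane to Ms4a3 was 4.4, 4.39, 9.79 and 12 in the floxed libraries and 6.84, 5.78, 14.5 and 14.8 in the KO libraries. Both libraries numbered 4 and 5 of a genotype were thus far above the others of that genotype. For 17 of the 28 pairs the 4 libraries numbered 4 and 5 all lay on one side of the other 4. The share over pairs of all genes was not computed, so this is no trait of the members. Over all genes tested, deviations from the genotype means were correlated between floxed and KO libraries. Within numbers 1 to 3 or within 4 and 5, r was 0.346 to 0.603, and across these sides -0.34 to -0.589. Neither the labels nor the methods say what the numbers 4 and 5 share, and what they share was not tested. Floxed replicate 3, the lowest library for most members, had the Elane to Ms4a3 ratio of floxed replicate 1.

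**Figure D3:**
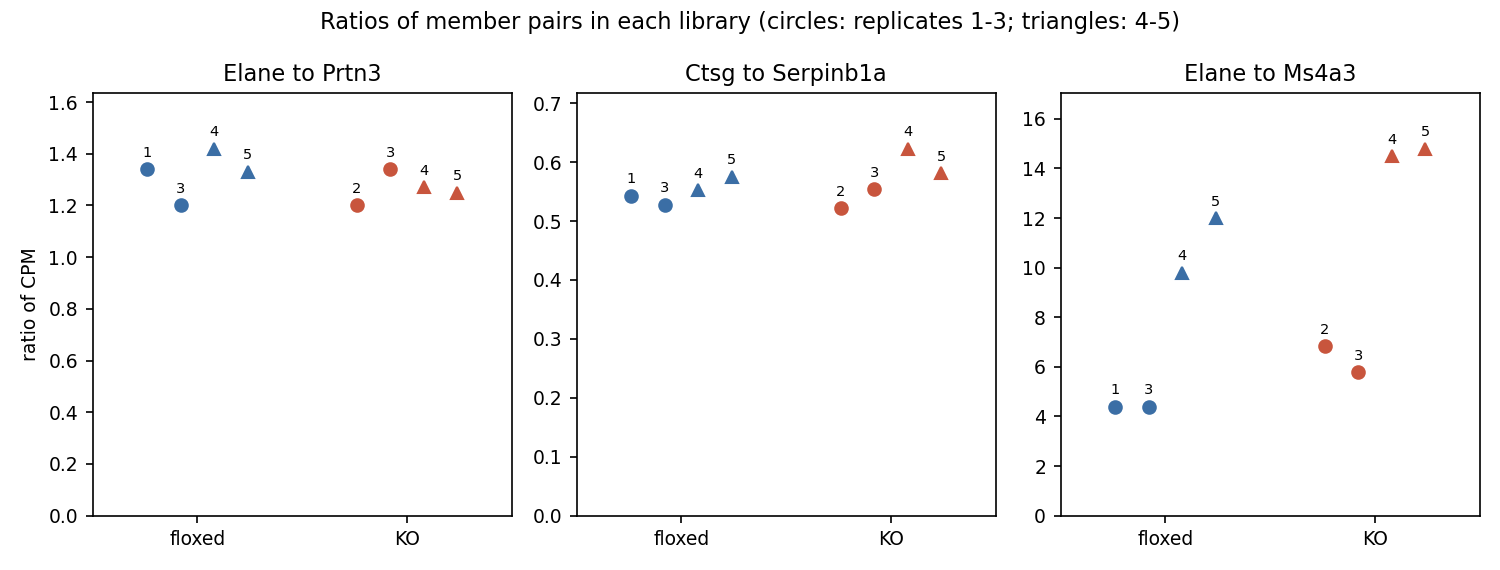
Ratio of CPM (y axis) in each floxed and KO library for Elane to Prtn3, Ctsg to Serpinb1a and Elane to Ms4a3, with replicate numbers, circles for numbers 1 to 3 and triangles for 4 and 5. The first and second ratios hardly vary, and Elane to Ms4a3 is 9.79 to 14.8 in replicates 4 and 5 of both genotypes against 4.39 to 6.84 in the others.

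For the start sites of the members, the stretch upstream of the first annotated exon was taken from the RefSeq promoter windows (GRCm38.p6), which held 6 of the 8 genes. The windows of 300 bases were searched on both strands for GAGGAA, a core recognised by PU.1 and other ETS factors, capitalised here. Only the stretches that held it are printed, and those of Ms4a3 and Lyz2 did not. The printed genes were not chosen for a shared pattern over libraries, and Ctsg did not have that of Elane and Prtn3. Mpo is at chr11:87793534-87793580 (plus strand), Elane at chr10:79886062-79886246 (plus strand), Prtn3 at chr10:79879417-79879613 (plus strand) and Ctsg at chr14:56102575-56102824 (minus strand).
Mpo: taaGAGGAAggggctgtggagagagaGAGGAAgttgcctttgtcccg
Elane: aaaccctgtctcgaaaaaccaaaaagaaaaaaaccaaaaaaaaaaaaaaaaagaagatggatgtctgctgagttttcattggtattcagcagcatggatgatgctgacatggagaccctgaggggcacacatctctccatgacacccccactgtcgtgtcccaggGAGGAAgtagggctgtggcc
Prtn3: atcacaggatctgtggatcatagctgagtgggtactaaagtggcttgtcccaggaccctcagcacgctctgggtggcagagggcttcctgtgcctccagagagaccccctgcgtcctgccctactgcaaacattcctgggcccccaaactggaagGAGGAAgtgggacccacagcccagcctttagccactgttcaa
Ctsg: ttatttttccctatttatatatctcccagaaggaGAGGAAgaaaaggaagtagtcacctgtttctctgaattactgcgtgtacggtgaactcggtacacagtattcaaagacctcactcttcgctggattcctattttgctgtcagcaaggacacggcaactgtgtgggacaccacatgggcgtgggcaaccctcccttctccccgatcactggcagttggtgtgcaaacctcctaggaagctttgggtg
Of the 6 windows 5 held GAGGAA (Mpo, Elane, Prtn3, Ctsg and Ms4a3, in the last only downstream of the start), as did 28.3% of all 32851 windows. It began 85 bases upstream of the RefSeq start in Elane, 95 in Prtn3, 216 in Ctsg and 224 for the nearer of 2 in Mpo, and Lyz2 had none. These distances depend on the start chosen. The RefSeq start of Mpo (87793784) lies inside its counted transcript, which begins at 87793581. That of Elane (79886312) lies inside a transcript beginning at 79886247. Measured from the first annotated exon, where the printed stretches end, the nearer match of Mpo lies about as close as that of Elane. The letters TATAA, found in many promoters near the start, were in 3 of the 6 windows and in 24.9% of all. They began 31 bases upstream of the RefSeq start in Elane, 32 in Prtn3 and 236 in Ctsg. In Elane and Prtn3 that place is inside the counted transcript, past the printed stretch. TTNNGNAA, a C/EBP pattern, was in 2 of the 6 windows (Ms4a3 and Lyz2) and in 40.7% of all. AACNG, a MYB pattern, was in 5 of the 6 and in 80.3% of all. A match is a stretch of letters and not a bound site, and no binding was measured.

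The ratios of members were also compared between genotypes, where 5 of the 28 pairs did not overlap and none passed the test. Elane to Mpo was 0.311, 0.29, 0.387 and 0.356 in the floxed libraries and 0.434, 0.394, 0.468 and 0.427 in the KO libraries. Prtn3 to Mpo was 0.232, 0.241, 0.273 and 0.268 in floxed and 0.361, 0.295, 0.369 and 0.343 in KO. Every KO library was above every floxed library for both, floxed replicate 3 included, and the same held for Prss57 against Mpo. The log2 differences were 0.36 for Elane and 0.43 for Prtn3. Elane and Prtn3 were also higher relative to Lyz2 in every KO library, by 0.48 and 0.54. These 5 of the 28 pairs each gave p = 0.0286 in an exact two-sided permutation test, the smallest that 4 against 4 libraries allow, and an adjusted p of 0.16 over the 28 pairs, so none passed. From that smallest p, an adjusted p under 0.05 would need most of the 28 pairs to separate fully. The test could therefore hardly pass any pair and does not decide whether these ratios differ. The ratio of a gene to Mpo was higher in every KO library for 11.9% of all genes, and did not overlap in either direction for 12.6%. For ratios to Lyz2, and over pairs of all genes, the share was not computed. The 5 of 28 pairs are therefore not read as a trait of the members.

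The ratio to Mpo depended on which bases of Mpo were counted. The annotation holds shorter Mpo transcripts, and their counts show how reads were spread along the gene. A transcript of 5 exons covering 15.0% to 58.7% of the gene span held 37.5%, 42.3%, 37.1% and 42.9% of the Mpo count in the floxed libraries and 27.4%, 30%, 32.7% and 33.3% in the KO libraries. Every KO library was lower. Toward the 3′ end, a transcript covering 82.7% to 94.6% of the span held 31.1 ± 4.05% in floxed and 41.2 ± 1.79% in KO, and one covering 88.0% to 99.6% held 15.5 ± 2.22% and 20.9 ± 2.79% (SD, n = 4), with every KO library higher. Relative to the first of these transcripts, Elane and Prtn3 differed by log2 0.74 and 0.80 (KO minus floxed), without overlap, about as for the transcript at 1.98% to 22.8% of the span (0.79 and 0.85, with overlap). Relative to the last of them, Elane was at 1.95, 2.21, 2.12 and 2.46 in floxed and 1.74, 1.93, 2.51 and 2.17 in KO, which overlap (log2 difference -0.07), and Prtn3 differed by -0.01.

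**Figure D4:**
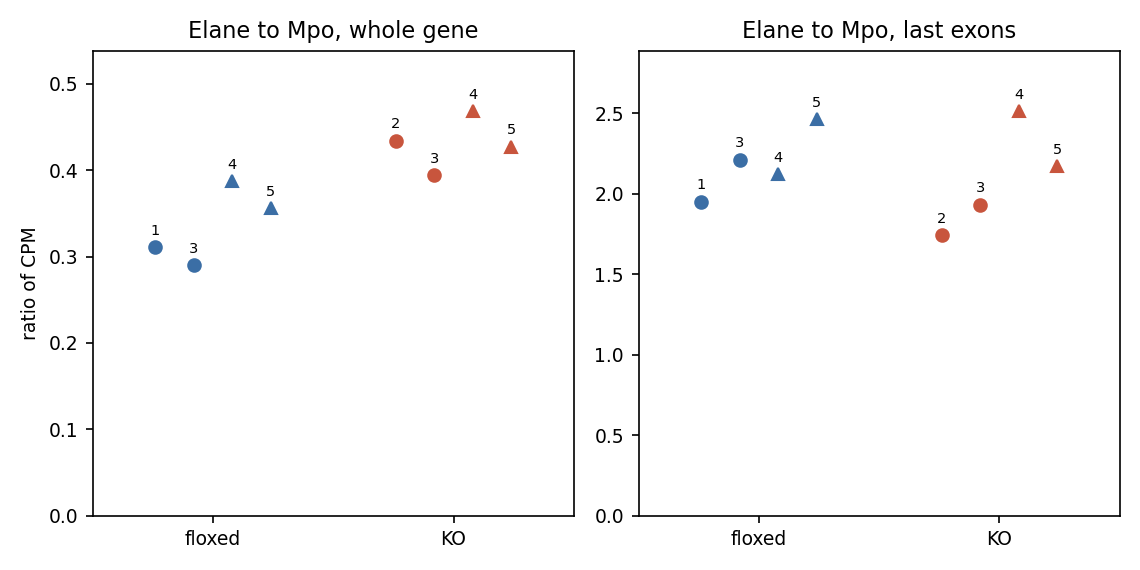
Ratio of Elane CPM to Mpo CPM in each library, with Mpo counted over the whole gene (left) or on the transcript of its last exons (right), replicate numbers beside the points. On the left the KO libraries (0.394 to 0.468) lie above the floxed libraries (0.29 to 0.387), and on the right they overlap.

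**Figure D5:**
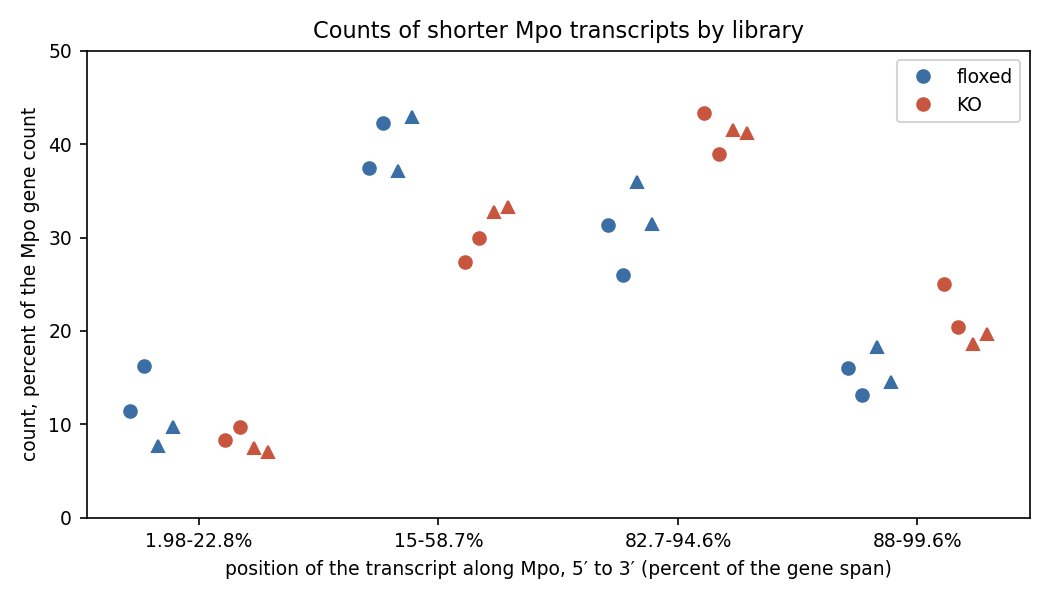
Counts on the 4 shorter Mpo transcripts in percent of the Mpo gene count (y axis), ordered by their place along the gene (x axis, percent of the span), for floxed (blue) and KO (red) libraries, circles for replicates 1 to 3 and triangles for 4 and 5. KO libraries are lower for the transcript at 15.0% to 58.7% and higher for both at the 3′ end.

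In CPM, the 15.0% to 58.7% transcript had 518.8, 303, 682.6 and 916.2 in floxed and 228.9, 263.4, 344.3 and 367.9 in KO libraries, while the one at 88.0% to 99.6% had 221.4, 93.68, 336.6 and 309.7 in floxed and 209, 179.2, 196.1 and 217.9 in KO libraries. The antisense gene Gm11505 overlaps the former stretch and stood at 668.2, 351.2, 939.8 and 1183 CPM in floxed and 308.4, 339, 475.6 and 508 CPM in KO libraries, a log2 fold change of -0.95 (adjusted p = 0.161, edgeR). The library kit marks no strand, so reads from Mpo and from Gm11505 cannot be told apart there. Among the other members a 5′ transcript of Serpinb1a, over 0.231% to 42.7% of its span, fell from 25.0 ± 2.88% to 20.7 ± 0.474% of the gene count (SD, n = 4), without overlap. In all, 4 of 14 shorter transcripts of the members did not overlap between genotypes, beside 10.2% of 32468 such transcripts of all genes, of which 6.98% were lower and 3.19% higher in KO. The transcripts of a gene share reads and are not independent.

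The other genes of granule formation were read in the same fit. Of 18 genes for cargo processing and lysosomal content 16 were tested and 0 passed, with a median log2 fold change of -0.22. Among them Ctsc, the enzyme that activates the granule proteases, had -0.79 (adjusted p = 0.114, edgeR) and, without floxed replicate 3, -0.99 (adjusted p = 0.00295), (1 gene of this list was higher and 3 lower in that fit), and the lysosomal proteases Ctsd and Ctsb had 0.10 and 0.48 (adjusted p = 0.851 and 0.133). Of 16 inhibitors of serine and cysteine proteases, 14 were tested and 0 passed (median -0.25), with -0.22 for Slpi, the secreted inhibitor of elastase, and 0.02 for the cystatin Cst3, and 3 were lower without floxed replicate 3. Of 15 related proteases and peroxidases 9 were tested and 0 passed (median -0.51), with -0.51 for the basophil protease Prss34 and 0.45 for the eosinophil peroxidase Epx, and 1 was higher and 3 lower without floxed replicate 3.

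The 18 genes of early neutrophil progenitors, all tested, had log2 fold changes below 0, with a median of -0.42, and 0 passed. Hp (haptoglobin) had -0.49 (adjusted p = 0.595) and Alox5ap, a partner of 5-lipoxygenase, -0.24 (adjusted p = 0.73) in edgeR. Without floxed replicate 3, 11 of the 18 passed, all lower in KO. Of 12 transcription factors of granulopoiesis 0 passed (median -0.25), and Spi1, which encodes PU.1, had -0.18 and Irf8 -0.09. Leaving out floxed replicate 3, 2 of the 12 were lower, Klf4 at -1.11 (adjusted p = 0.00193, edgeR) and Gfi1, a repressor needed for neutrophil formation, at -0.76 (adjusted p = 0.0148). Spi1 had -0.47 in that fit and did not pass (adjusted p = 0.433, edgeR). Among 7 receptors for colony-stimulating and stem cell factors 0 passed (median -0.18). Csf3r, the G-CSF receptor, had -0.65 (adjusted p = 0.0806) and Csf2ra 0.08 (adjusted p = 0.935) in edgeR. In the fit without floxed replicate 3, 3 of the 7 were lower, Csf3r with -0.75 (adjusted p = 0.00286).

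Later neutrophil genes had medians like that of the members. Of 18 specific and gelatinase granule genes 17 were tested, with a median of -0.55, and 1 passed: Olfm4, a glycoprotein of a subset of neutrophils, fell from 209 ± 42.3 to 37.9 ± 7.6 CPM (SD, n = 4), a log2 fold change of -2.46 (adjusted p = 0.00109, edgeR). In the fit with overlapping genes left out, 0 of the specific and gelatinase granule genes passed. Of 10 mature neutrophil markers 9 were tested and 0 passed (median -0.63), with -0.05 for Retnlg and -0.27 for Mxd1. Without floxed replicate 3, 10 of the 17 and 7 of 10 passed, all lower in KO.

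Markers of other cells that the sorted RNA could hold moved as follows. Among monocyte and macrophage markers 2 of 13 rose, C1qa (log2 fold change 1.26, adjusted p = 0.0334, edgeR) and C1qc (1.25, adjusted p = 0.0245), both chains of complement C1q, and 0 fell. Of the 13, 7 were below 0, with a median of -0.18. Among 12 markers of basophils, mast cells and eosinophils, the eosinophil granule genes Prg2 (1.24) and Ear6 (1.05) rose and Fcer1a, of the IgE receptor, fell (-2.22). Erythroid markers gave 3 of 14 higher (Hba-a1 2.32, Hbb-bt 2.16 and Klf1 1.85) and megakaryocyte markers 6 of 10, with Gp5 (2.76), Ppbp (2.62), Pf4 (2.27) and Gp9 (2.0) the largest. B cell markers gave 2 of 10 higher (Vpreb1 1.66 and Cd79a 0.81), plasma cell markers 2 of 8 lower (Jchain -1.66 and Prdm1 -1.20), T and NK cell markers 1 of 10 lower (Ncr1 -1.72) and LT-HSC markers 2 of 13 higher (among them Pdzk1ip1 1.61). Over all lists 21 genes passed, and 2 did in the 6 libraries numbered 3, 4 and 5, with the block for the number and without it. The counts were larger without floxed replicate 3. Erythroid markers then gave 14 of 14 higher, megakaryocyte markers 8 of 10, B cell markers 8 of 10 and LT-HSC markers 4 of 13, with 0 lower in each. Plasma cell markers gave 4 of 8 lower and T and NK cell markers 3 of 10, with 0 higher. Monocyte and macrophage markers split into 4 higher and 5 lower of 13, and those of basophils, mast cells and eosinophils into 4 higher and 5 lower of 12. The summed erythroid CPM was 28460 to 72000 in floxed, highest in floxed replicate 3, and 124200 to 296700 in KO, and the part of these cells in the members' levels was not tested.

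Besides the members themselves, the 10 genes most like them were Lbp (r = 0.996), Cep19, Pgam1, Rtn3, Ncf1, Slfn1 (each 0.993), Prss16 (0.992), Fpr1, Ugt1a2 and Ltf (each 0.991), by Pearson correlation over the 8 libraries with the mean of the standardised members. Ncf1 is a subunit of the phagocyte oxidase, Fpr1 the formyl peptide receptor and Ltf the specific granule protein lactoferrin. Their log2 fold changes ran from -0.99 (Prss16) to -0.27 (Rtn3), and none passed the test. Ltf averaged 4990 ± 1864 CPM in floxed and 3580 ± 74.8 CPM in KO (SD, n = 4). Next to the members on their chromosomes, Tspoap1 (-0.16) and Lpo (-0.10) lay at Mpo, and Gm19810 (0.88, adjusted p = 0.073, edgeR) 497 bases past Elane. Yeats4 (0.47) lay at Lyz2, Rnf126 (0.50) and Palm (-0.23) at Prss57, and Wrnip1 (0.23) at Serpinb1a. Oosp1 (-1.66) at Ms4a3 had few counts, with means of 0.4944 CPM in floxed and 0.1473 CPM in KO. So did Serpinb1-ps1 (-0.69) at Serpinb1a, with 0.4517 CPM in floxed and 0.2778 CPM in KO. None of these neighbours passed.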

How the data were processed

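RNA of sorted LT-HSCs was sequenced from 4 asrij floxed and 4 asrij KO mice. The authors deposited counts per Ensembl transcript, not normalized, and per the labels' processing notes and the study's methods used FastQC, Trim Galore and Bowtie2 with GRCm38 (mm10). The counting tool, the annotation release, versions and the use of strand are not given in the sources used here. All values in the 8 files were whole numbers. For 7 files, separated by tabs under a comma-separated name, the automatic check of units could not read the columns and the unit was recorded as another one. The design assumed counts and was kept.

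Of 138930 transcripts, 138789 were mapped to genes of GENCODE M21 (GRCm38). Each gene was represented by 1 transcript, the one with most counts over the libraries. In these files a count covers the whole span of a transcript with introns and both strands: of 4405 pairs in which a transcript with at least 800 counts lies inside an intron of another gene, the outer one had at least the inner count in every library for all 4405. Gene counts were 23412834 to 44874883 per library, and the standard errors of the members' log2 fold changes were 0.26 to 0.39.

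Counts were filtered with filterByExpr, scaled by TMM and tested by genotype with glmQLFit and glmQLFTest of edgeR 4.0.16 under R 4.3.3, and p-values were adjusted over all genes by the Benjamini-Hochberg method. DESeq2 1.42.0 and limma-voom (limma 3.58.1) were alternatives, and the fits were tested on simulated data. Single values were compared by exact permutation over 70 labelings. Figures used matplotlib 3.10.9. Replicate numbers 3, 4 and 5 occur in both genotypes in the labels. Deviations from the genotype means correlated at 0.374, 0.394 and 0.579 in these pairs, so the numbers were taken as pairing, although pairs of different numbers within 1 to 3 or within 4 and 5 reached 0.346 to 0.603. The block for the number was an alternative, as were other scalings, filters, tests and each library left out.

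The members and lists were chosen with earlier results of these data known. Genes named are the members, Ociad1, up to 4 passing genes of each list with the largest change or else the 2 most abundant, the 10 most similar genes, nearest tested neighbours, and genes sharing bases with a member. Ctsc, Gfi1, Klf4, Procr, Hoxb5, Slamf1 and Kit, the member ratios, the transcript shares and the promoter motifs were chosen after values were seen. For Prss57 and Serpinb1a no promoter window was used here. The values of 1 list gene are not reported here.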

Additional observations from a re-analysis of the deposited data

Results flagged for a closer look

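Within the 4 libraries of a genotype, 134 groups of values were searched for a library far from the other 3 by Dixon's criterion. The groups were each member, the ratio of each pair of members, each list's summed CPM and the transcript shares. In 12 a library stood apart, where chance gives about 1 in 20 groups, or 6.7. The lists overlap in cells and libraries, so the groups are not independent. In 10 of the 12 it was floxed replicate 3. Among the members this was Ctsg, with 79.32 CPM against 163.2 to 184.5 in the other floxed libraries.

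The same library had the lowest summed CPM of the cargo processing list (1670), the protease inhibitors (276.0), the related proteases and peroxidases (248.9), the early neutrophil progenitor genes (1895), the specific and gelatinase granule genes (20290), the mature neutrophil markers (1338), the monocyte and macrophage markers (1041) and the markers of basophils, mast cells and eosinophils (1045). Its B cell markers summed to the highest value, 692.8 CPM against 342.7 to 383.3 in the other floxed libraries.

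The remaining 2 are small differences. Plasma cell markers summed to 186.9 CPM in KO replicate 5 against 180.2 to 180.7 in the other KO libraries, and LT-HSC markers to 152.2 CPM in floxed replicate 1 against 169.9 to 172.0 in the other floxed libraries.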

How the results depend on the processing

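No member passed in any alternative except without floxed replicate 3 (with overlapping genes left out, Mpo and Prss57 were not tested). Leaving out 1 library at a time gave 0 to 4 members, 51 to 857 genes past both thresholds (261 with all libraries) and 3 to 99 companion genes (21 with all libraries), in each case the highest number without floxed replicate 3. DESeq2 gave 503 genes and 48 companion genes, and an adjusted p-value alone 651 genes. A replicate block for the pairs 3, 4 and 5 gave 44 genes and 2 companion genes, and in the same 6 libraries without the block, added after seeing the data, 23 and 2. The block changed no call for a member. A block for numbers 4 and 5 gave 521 and 60. Of 150 fits of single members, 145 kept direction and side of the threshold, 4 passed (all without floxed replicate 3), and 1 turned: the log2 fold change of Prtn3, which ranged from -0.48 to 0.00 with 1 library left out, was 0.00 without floxed replicate 5. Pairs of members with ratios that did not overlap numbered 5, and 3 with Mpo counted on its last exons, of which 2 were among the 5. The cause of these shifts was not tested. With 4 libraries a genotype and standard errors up to 0.39, log2 differences the size of the members' were within the spread between floxed libraries.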
